A study of Homo sapiens with 12 samples.

Results

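The nuclear genes that encode subunits of the mitochondrial respiratory chain and ATP synthase were examined in the NSCLC (non-small cell lung cancer) cell lines A549 and PC9. They were chosen by symbol, with earlier results of these data known, as the structural subunits of complexes I to V, and assembly factors, the ATPase inhibitor and pseudogenes were left out. Of 88 such genes in the annotation, 62 had a row among the 12584 genes of the count table, and the other 26 were not analysed here. The 62 comprised 28 of 39 genes of complex I, 3 of 4 of complex II, 5 of 10 of complex III, 13 of 17 of complex IV and 13 of 18 of complex V. Complexes were assigned by symbol. NDUFA4 and NDUFA4L2, which are complex IV proteins and were not analysed, are thus among the 39. The poly(A) RNA of stably infected A549 and PC9 cells was sequenced, with 3 libraries for each of 4 groups and 12 in all. A549-HOXC6 and PC9-HOXC6 cells carried a lentiviral vector that overexpresses the homeobox transcription factor HOXC6, and A549-NEO and PC9-NEO cells carried the empty vector. All 4 groups had thus been infected, and no uninfected cells were compared. The libraries of a group were described as independent replicates, but whether these were separate infections or separate cultures of an infected line was not given, so p-values measure the spread between these libraries.

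The respiratory chain passes electrons from NADH, through complex I, or from succinate, through complex II, to ubiquinone, then through complex III and cytochrome c to complex IV, which reduces oxygen. Complexes I, III and IV pump protons across the inner mitochondrial membrane, and ATP synthase (complex V) uses the gradient to make ATP. Mitochondrial DNA encodes a few core subunits of complexes I, III, IV and V, and the other subunits, including all of complex II, are encoded in the nucleus and imported. Promoters of many of these nuclear genes are known to bind NRF1, the ETS factor GABP and YY1.

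The promoters of 4 of the genes are shown because the results below turn on them. NDUFS6 and ATP5MC2 differed strongly between the lines in opposite directions, and ATP5MC1 and NDUFA2 differed between the lines in their response to HOXC6. Each sequence is from RefSeq (GRCh38.p14) and runs 5′ to 3′ from 250 bases before the start of the gene to 50 bases from it. Capitals mark exact matches to GCGCATGC (NRF1) or ATGGCGG (YY1) on either strand. CCGGAAG (ETS) was searched in the same way. The windows lie at chr5:1801157-1801456 on the forward strand (NDUFS6), chr17:48892537-48892836 on the forward strand (ATP5MC1), chr12:53676034-53676333 on the reverse strand (ATP5MC2) and chr5:140647581-140647880 on the reverse strand (NDUFA2).
NDUFS6: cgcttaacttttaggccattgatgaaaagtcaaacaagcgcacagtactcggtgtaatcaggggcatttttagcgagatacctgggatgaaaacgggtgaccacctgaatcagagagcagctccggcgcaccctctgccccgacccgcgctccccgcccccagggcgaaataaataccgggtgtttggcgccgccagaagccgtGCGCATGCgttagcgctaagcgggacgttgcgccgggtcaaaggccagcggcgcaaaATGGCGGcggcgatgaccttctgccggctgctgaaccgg
ATP5MC1: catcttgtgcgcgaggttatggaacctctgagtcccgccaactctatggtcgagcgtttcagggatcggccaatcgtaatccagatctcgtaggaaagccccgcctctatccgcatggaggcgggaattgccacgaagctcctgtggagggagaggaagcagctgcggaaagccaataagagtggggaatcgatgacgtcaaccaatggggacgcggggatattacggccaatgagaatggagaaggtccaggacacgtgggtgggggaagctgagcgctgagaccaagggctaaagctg
ATP5MC2: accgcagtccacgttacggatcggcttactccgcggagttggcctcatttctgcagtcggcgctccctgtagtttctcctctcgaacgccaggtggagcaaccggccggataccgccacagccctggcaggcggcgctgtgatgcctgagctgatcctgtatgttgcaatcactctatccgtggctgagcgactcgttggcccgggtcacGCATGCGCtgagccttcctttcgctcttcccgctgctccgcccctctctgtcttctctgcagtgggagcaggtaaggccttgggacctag
NDUFA2: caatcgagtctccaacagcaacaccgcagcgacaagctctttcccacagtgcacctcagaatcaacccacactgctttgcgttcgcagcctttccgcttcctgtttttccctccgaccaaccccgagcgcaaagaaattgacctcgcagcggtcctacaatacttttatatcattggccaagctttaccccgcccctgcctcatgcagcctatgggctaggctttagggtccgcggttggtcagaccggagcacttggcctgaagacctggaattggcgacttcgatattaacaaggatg

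The NDUFS6 window held an NRF1 match at position -46 and a YY1 match at position 12 relative to the start, and the ATP5MC2 window held an NRF1 match on the opposite strand at position -40. The windows of ATP5MC1 and NDUFA2 held none of the 3 motifs. RefSeq promoters were matched for 49 of the 62 genes. By sequence match to GRCh37, the RefSeq start lay within 100 bases of an annotated transcript start for 48 of the 49, and for NDUFA5 it lay 43.7 kb from the nearest. The NRF1 letters were in 10 of these 49 (20.4%) against 4.26% of 15318 promoters of coding genes, the ETS letters in 13 (26.5%) against 14.4%, and the YY1 letters in 12 (24.5%) against 7.77%. These are descriptions of letters in a window and not of binding.

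The libraries held 1212053 to 3286577 counts each over the genes of the table. The lowest totals were in 1 library each of A549-HOXC6 and PC9-HOXC6. HOXC6 itself was not analysed here, so the group labels were not checked against the targeted gene. Of 6 epithelial markers, the 4 in the table (EPCAM, CDH1, KRT7 and KRT18) were above 3 counts in every library, although EPCAM had only 6 to 20 counts in the A549 libraries. The leukocyte marker PTPRC had 0 to 4 counts. Of the fibroblast markers, 1 of 4 was above 3 counts in every library.

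The chain was expressed at a high level in both lines. Levels were taken as CPM (counts scaled to the normalized size of the library) divided by the length of the canonical transcript in kb. The median of the 62 genes was 67.2 in A549-NEO and 88.4 in PC9-NEO. Other coding genes that passed a minimum mean CPM in the group had medians of 10.3 and 10.9. That minimum was not applied to the 62 genes. Together the genes took 0.636% ± 0.018 (SD, n = 3) of the counts in A549-NEO and 0.682% ± 0.011 with HOXC6. The shares in PC9 were 0.790% ± 0.009 for NEO and 0.793% ± 0.022 for HOXC6. In bulk RNA a change in the number of cells that express a gene and a change in RNA per cell cannot be told apart. In A549-NEO the highest level per kb was that of COX6B1, a complex IV subunit that faces the intermembrane space, at 591 ± 34.1 CPM per kb. ATP5MC2 followed at 573 ± 36.7, and these neighbours differed by less than their spread. In PC9-NEO the highest was COX7C of complex IV, at 425 ± 20.4 CPM per kb, and NDUFS5 followed at 402 ± 32.9, again within the spread.

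The isoforms of complex IV known from particular tissues were low or not detected. COX6A2, the heart and muscle form, had 0 counts in 11 libraries and 1 in the remaining library. COX4I2, which is known from lung, reached at most 3 counts. COX7A1, the muscle form, was counted 21, 9 and 6 times in the A549-NEO libraries but only 2, 0 and 2 times in those of A549-HOXC6. The PC9 libraries gave 1, 4 and 5 counts for NEO and 1, 0 and 6 for HOXC6. The gene was removed by the filter for low counts, so its difference in A549 was not tested. COX6B2, the testis form, was the only isoform of this kind that was tested. NDUFC2, with at most 8 counts, and NDUFB8, with at most 17, were also low. For NDUFB8, 675 bp of the exons of all its transcripts are shared with another gene on the same strand. Its canonical transcript is 678 bp long. For NDUFC2, 428 bp are shared with a readthrough gene, so the counts of both are uncertain. In all, 57 of the 62 genes were tested within each line and between the lines.

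The largest differences in the chain were between the lines. The paper states that A549 was kept in RPMI medium and PC9 in DMEM. Line and medium thus cannot be told apart in any comparison of the lines. With the empty vector, 15 of 57 genes were higher in A549 than in PC9 and 28 were lower at an adjusted p under 0.05 (edgeR's quasi-likelihood test with Benjamini-Hochberg adjustment over all genes tested), against 36.9% and 35.7% of all genes. The median of the chain was -0.25 on the log2 scale against 0.02 over all genes. At the study's thresholds, which add a log2 change above 1 or below -1, 10 genes were called against 36.0% of all genes, so large differences took a smaller share of the chain than of the table. Scaling by library size alone moved the median of all genes to -0.10 and that of the chain to -0.37.

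**Figure D1:**
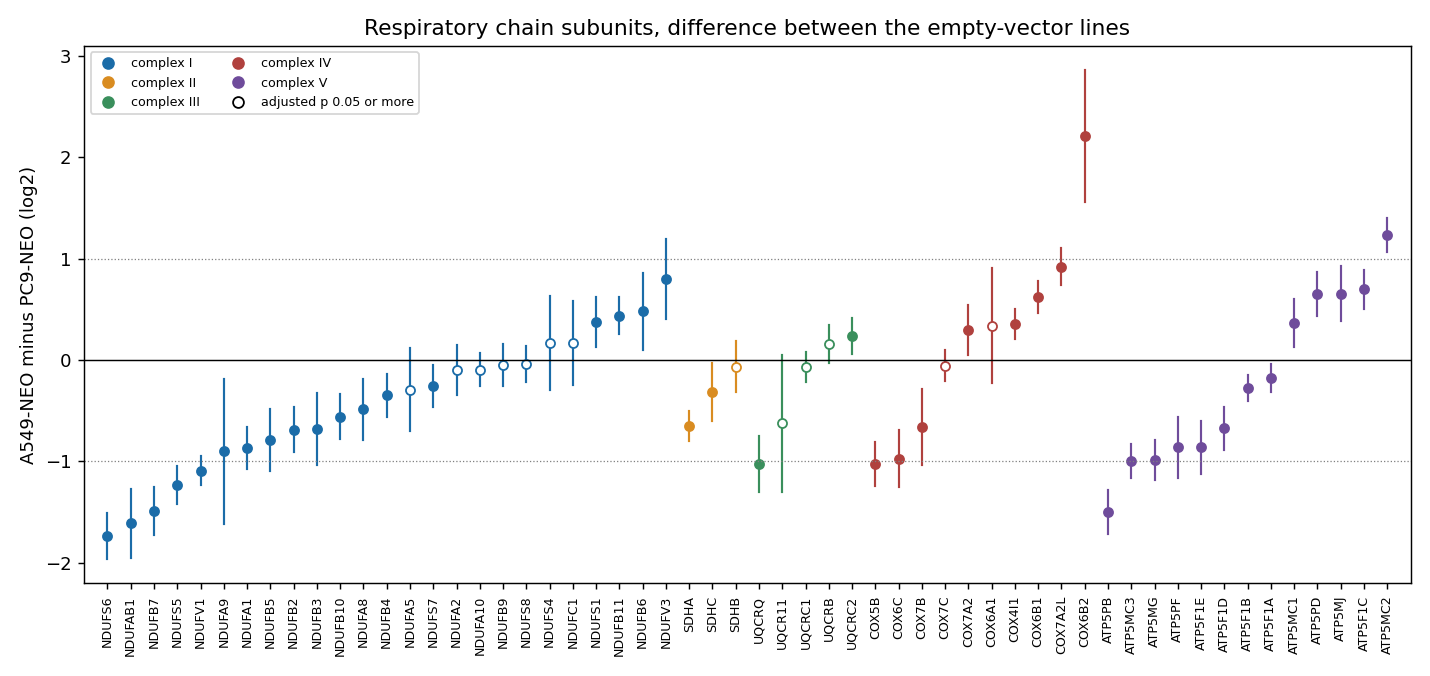
The vertical axis gives the log2 difference of A549-NEO minus PC9-NEO for 56 of the 57 genes tested, ordered within complexes, with bars for 95% confidence intervals and filled points for an adjusted p under 0.05. Complex I reaches lowest, at NDUFS6 (-1.74), and COX6B2 of complex IV is highest (2.21).

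Complex I, with 26 of the 57 genes tested, held 14 of the 28 lower genes and 4 of the higher ones. The lower genes were 53.8% of those tested in complex I and 49.1% of those in the whole chain. The summed level of complex I was 1900 ± 25.3 CPM in A549-NEO and 2749 ± 63.3 in PC9-NEO. NDUFS6, an accessory subunit of the arm that oxidizes NADH (GRCh37 chromosome 5, 1801521 to 1816162), had 59.0, 45.0 and 46.0 CPM in A549-NEO, compared with 189, 153 and 174 in PC9-NEO. Every A549 library was below every PC9 library, with a log2 difference of -1.74 ± 0.11 (SE, edgeR adjusted p = 1.73e-16). NDUFV1, the flavoprotein that takes electrons from NADH, had 205, 209 and 187 CPM in A549-NEO, compared with 432, 465 and 423 in PC9-NEO, a difference of -1.09 ± 0.07 (edgeR adjusted p = 2.99e-16). NDUFAB1, the mitochondrial acyl carrier protein, differed by -1.61, NDUFB7 of the membrane arm by -1.49 and NDUFS5 by -1.23. No gene of complex I was higher in A549 past a log2 difference of 1.

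Complex IV went both ways, with 5 genes higher and 3 lower in A549. COX6B2 (GRCh37 chromosome 19, 55860674 to 55866087) had 20.8, 18.5 and 24.8 CPM in A549-NEO, compared with 4.86, 8.05 and 1.70 in PC9-NEO. The groups did not overlap and the log2 difference was 2.21 ± 0.32 (edgeR adjusted p = 1.36e-07), from at most 16 counts in a PC9-NEO library. COX5B, a zinc-binding subunit that every tissue uses, was lower in A549 by -1.03. In complex II, SDHA, the flavoprotein that oxidizes succinate, differed by -0.65, and in complex III UQCRQ differed by -1.02.

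Complex V had 5 higher and 8 lower genes, and all 13 passed the test. ATP5PB, subunit b of the peripheral stalk, had 48.9, 55.8 and 57.8 CPM in A549-NEO, compared with 177, 144 and 153 in PC9-NEO, a log2 difference of -1.5 ± 0.11 (edgeR adjusted p = 3.57e-15). The genes for subunit c, the ring that turns in the membrane, differed in opposite directions. ATP5MC1, ATP5MC2 and ATP5MC3 encode the same mature protein behind different import sequences. ATP5MC2 had 388, 356 and 342 CPM in A549-NEO, compared with 136, 169 and 169 in PC9-NEO, so that every A549 library was above (log2 difference 1.23 ± 0.08, edgeR adjusted p = 4.44e-16). ATP5MC3 had 119, 118 and 121 CPM in A549-NEO, compared with 251, 251 and 234 in PC9-NEO, with every A549 library below (-1.0 ± 0.08, edgeR adjusted p = 1.44e-13). ATP5MC2 took 64.2% ± 1.02 of the counts of these 3 genes in A549-NEO and 33.6% ± 3.75 in PC9-NEO, and ATP5MC3 took 21.2% ± 1.13 and 52.2% ± 1.95. These shares are of reads and not per length, and the canonical transcripts are 632 bp for ATP5MC2 and 2587 bp for ATP5MC3. Per kb, ATP5MC2 was above ATP5MC3 in both lines, at 573 and 46.1 CPM per kb in A549-NEO and 250 and 94.8 in PC9-NEO. Annotated pseudogenes number 8 for ATP5MC1, 5 for ATP5MC2 and 0 for ATP5MC3, and their effect on the counts was not tested. The summed level of the 3 genes was 564 ± 27.2 CPM in A549-NEO and 470 ± 8.66 in PC9-NEO.

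**Figure D2:**
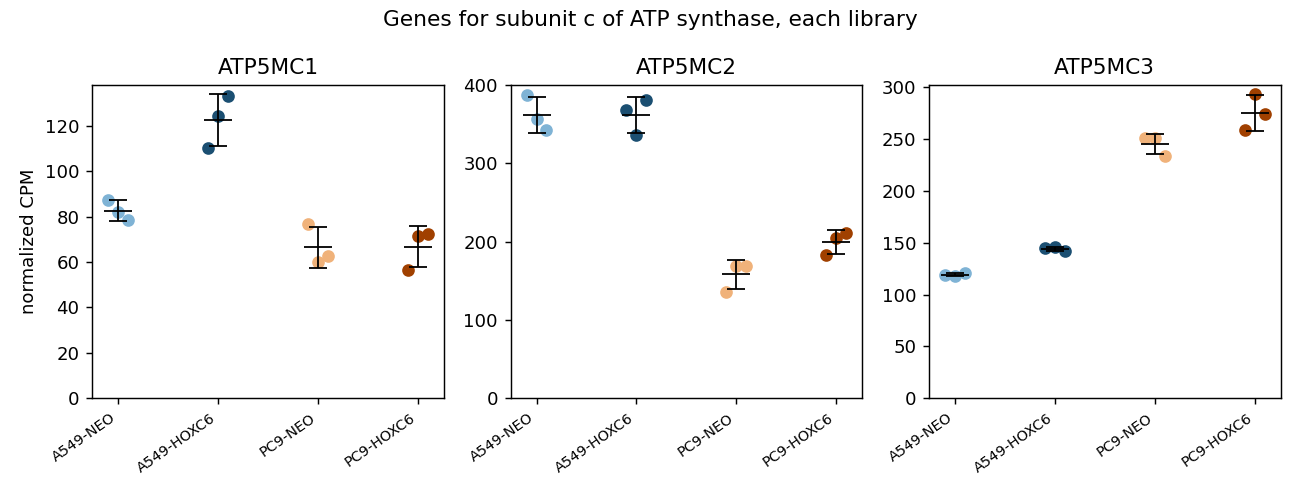
Points give the normalized CPM of the 3 genes for subunit c in each library, with the mean and SD of each group. ATP5MC2 is higher in A549 and ATP5MC3 is higher in PC9, with either vector.

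To ask what HOXC6 overexpression changed, HOXC6 and NEO libraries were compared within each line. In A549, 15 of 57 genes were higher with HOXC6 against 18.9% of all genes, and 3 were lower against 20.7% (edgeR). The median of the chain was 0.15 on the log2 scale and that of all genes -0.0005. The changes were small, and 2 genes, NDUFA5 and COX6B2, passed the study's thresholds, against 7.21% of all genes. In both lines the change of a gene moved with its GC content. Spearman's rho across genes, which are not independent, was 0.53 over 8712 genes and 0.62 over the 57 genes of the chain in A549. After each library was corrected for trends with GC content and transcript length, 8 genes of the chain were higher in A549 against 12.7% of all genes and 2 were lower against 19.0%.

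The complex I genes, 26 of the 57 tested, included 9 of the 15 that rose in A549. NDUFA2, an accessory subunit of the matrix arm (GRCh37 chromosome 5, 140018325 to 140027356), had 56.9, 65.5 and 61.7 CPM in A549-NEO, while the libraries with HOXC6 held 87.0, 110 and 107. The groups did not overlap, and the log2 change was 0.66 ± 0.13 (edgeR adjusted p = 0.000173), and 0.38 after the correction (edgeR adjusted p = 0.00989). NDUFV1 rose from 205, 209 and 187 CPM to 270, 253 and 286, a change of 0.39 ± 0.09 (edgeR adjusted p = 0.00143), which was 0.06 after the correction (edgeR adjusted p = 0.622). NDUFB10 and NDUFB7 of the membrane arm rose by 0.50 and 0.53, and NDUFS7, which holds the iron-sulfur cluster next to the ubiquinone site, by 0.35. NDUFS6 rose by 0.56, with overlapping groups. The corrected values of these 4 genes, from 0.09 to 0.28, did not pass the test. The summed level of complex I was 1877 to 1927 CPM in the A549-NEO libraries and 2187 to 2507 in the A549-HOXC6 libraries.

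In the other complexes, SDHC, a membrane anchor of complex II, had 41.6, 50.6 and 38.9 CPM in A549-NEO, while the libraries with HOXC6 held 70.6, 76.2 and 57.8. All HOXC6 libraries were above, with a log2 change of 0.59 ± 0.15 (edgeR adjusted p = 0.00298) and of 0.43 after the correction (edgeR adjusted p = 0.0161). UQCRC1, a core protein of complex III, rose by 0.32 and COX4I1, the common form of its complex IV subunit, by 0.35, and their corrected values were -0.01 and 0.04. ATP5MC1 had 87.4, 82.0 and 78.6 CPM in A549-NEO, while the libraries with HOXC6 held 110, 124 and 133, a change of 0.51 ± 0.11 (edgeR adjusted p = 0.000768) that was 0.20 after the correction (edgeR adjusted p = 0.136). Its share of the counts of the subunit c genes was 14.7% ± 0.129 in A549-NEO and 19.5% ± 1.56 in A549-HOXC6.

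The 3 genes that fell in A549 were UQCRB, NDUFA5 and COX6B2. UQCRB, a small subunit of complex III near the ubiquinone site, had 149, 174 and 148 CPM in A549-NEO, while the libraries with HOXC6 held 87.3, 103 and 92.6, a change of -0.80 ± 0.11 (edgeR adjusted p = 2.75e-06). NDUFA5, an accessory subunit of the matrix arm of complex I (GRCh37 chromosome 7, 123177051 to 123197958), had 22.6, 22.9 and 18.9 CPM in A549-NEO, while the libraries with HOXC6 held 12, 9.42 and 7.49, a change of -1.15 ± 0.26 (edgeR adjusted p = 0.000814). Both genes have GC-poor transcripts, and after the correction they missed the test, at -0.25 for UQCRB (edgeR adjusted p = 0.0542) and -0.48 for NDUFA5 (edgeR adjusted p = 0.153). COX6B2 went from 20.8, 18.5 and 24.8 CPM to 11.3, 12 and 9.10, without overlap, and its change of -1.04 ± 0.25 (edgeR adjusted p = 0.0018) was -1.37 after the correction (edgeR adjusted p = 2.64e-05). Of its exons, 1083 bp are shared with another gene on the same strand. Without A549-HOXC6 replicate 3, 5 genes were lower and none passed the study's thresholds, and without A549-NEO replicate 3 1 gene did. The shares of all genes called without these libraries are not given here.

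**Figure D3:**
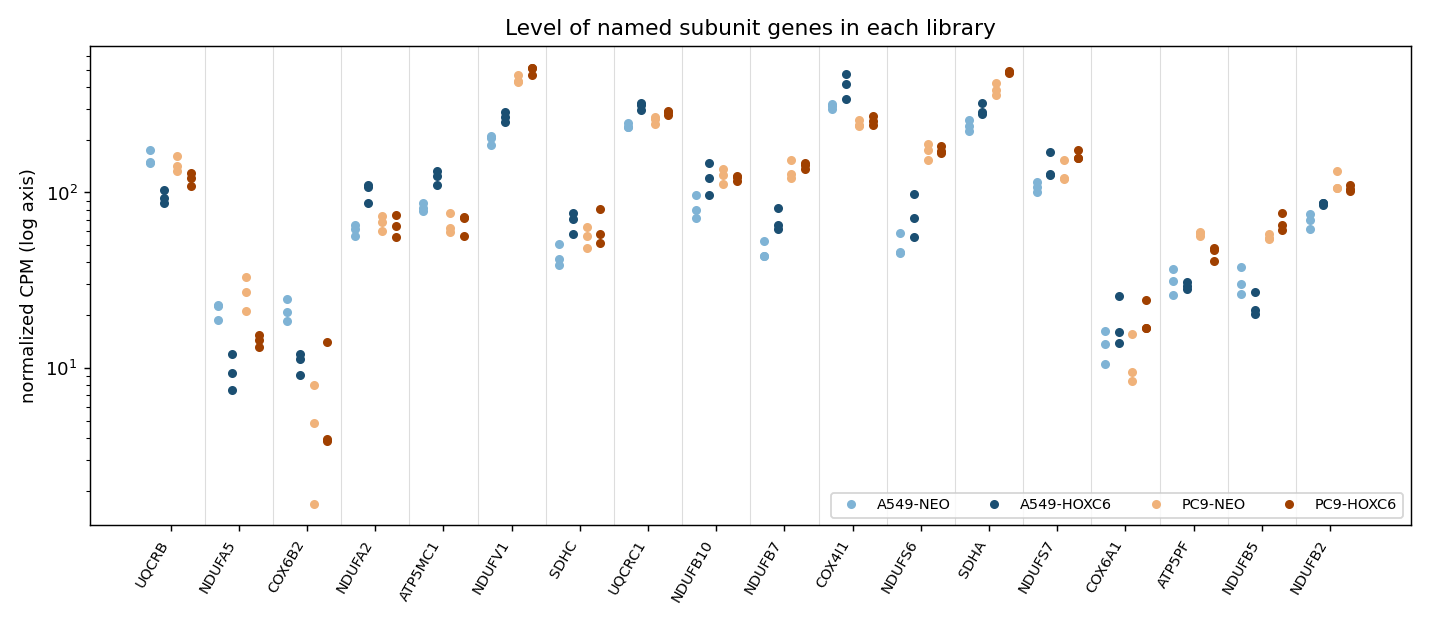
Each point is the normalized CPM of a gene in a library, on a log axis, for 18 named genes in the 4 groups. NDUFA5 and UQCRB are lower with HOXC6 in both lines, and NDUFA2 is higher with HOXC6 in A549, from 56.9 to 65.5 CPM in A549-NEO and 87.0 to 110 in A549-HOXC6.

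In PC9, 8 of 57 genes were higher with HOXC6 against 13.3% of all genes and 3 were lower against 14.2% (edgeR). None passed the study's thresholds, against 4.53% of all genes, while 15 had an unadjusted p under 0.05, and DESeq2 also called none at these thresholds. The median change was 0.06 in the chain and -0.005 over all genes. Spearman's rho of the change with GC content was 0.53 over 8360 genes and 0.42 over the chain. After the correction 5 genes were higher against 8.42% of all genes and 3 were lower against 12.4%. Without PC9-HOXC6 replicate 3, the deepest library, 1 gene was higher and 1 lower. Without PC9-NEO replicate 1 or replicate 2, 4 were higher, and without PC9-NEO replicate 2, PC9-HOXC6 replicate 1 or PC9-HOXC6 replicate 2, 1 was lower. For these fits the shares of all genes called are not given here.

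SDHA had 359, 421 and 385 CPM in PC9-NEO, while the libraries with HOXC6 held 482, 493 and 479. The groups did not overlap, and the log2 change was 0.32 ± 0.07 (edgeR adjusted p = 0.000714) and 0.13 after the correction (edgeR adjusted p = 0.166). Of its exons, 1887 bp are shared with another gene on the same strand. ATP5MC2 rose from 136, 169 and 169 CPM to 183, 204 and 211, a change of 0.34 ± 0.09 (edgeR adjusted p = 0.00632) and of 0.14 after the correction (edgeR adjusted p = 0.292). COX6A1, the common counterpart of the muscle form COX6A2, had 15.7, 9.56 and 8.48 CPM in PC9-NEO, while the libraries with HOXC6 held 16.9, 17.0 and 24.4, the largest increase at 0.86 ± 0.27 (edgeR adjusted p = 0.0174). It rested on 19 to 80 counts a library, and missed the test after the correction (0.67, edgeR adjusted p = 0.0764).
In complex I, NDUFS7 rose by 0.32, and it did not pass after the correction. Its exons share 3836 bp with genes on the opposite strand, and the strand setting of the counting is not given.

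NDUFA5 had the largest decrease among the genes tested in PC9 before the correction, from 33.0, 21.1 and 27.1 CPM to 14.5, 13.3 and 15.6. Every HOXC6 library was below every NEO library, with a log2 change of -0.88 ± 0.22 (edgeR adjusted p = 0.00356) and of -0.26 after the correction (edgeR adjusted p = 0.449). ATP5PF, coupling factor 6 of the peripheral stalk, fell by 0.36, to 40.5, 47.2 and 48.2 CPM from 58.9, 56.9 and 59.8 (log2 change -0.36, edgeR adjusted p = 0.0462), and it was at -0.16 after the correction (edgeR adjusted p = 0.42). Of its exons, 750 bp are shared with JAM2 and GABPA on the opposite strand, and the strand setting of the counting is not given. UQCRB fell by 0.26 (edgeR adjusted p = 0.0475), and its corrected value was 0.15.

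Side by side, NDUFS7, NDUFV1 and SDHA were higher with HOXC6 in both lines, and NDUFA5 and UQCRB were lower in both. The PC9 groups overlapped for NDUFV1. A further 33 genes passed the test in neither line. After the correction none of these 5 passed in either line. The genes then called higher in both lines were ATP5MC3, ATP5MG, COX7C and COX7A2L, which were picked out after their values were seen. Their transcripts are GC-poor, at 38.5% to 40.7%, against a median of 48.5% over the 62 genes. After the correction the change fell with GC content within the chain (Spearman's rho -0.22 in A549 and -0.49 in PC9). The correction raised the estimates of these 4 genes in both lines, and before it none of them passed in either line. ATP5MC3 went from 0.22 to 0.62 in A549 (corrected edgeR adjusted p = 5.87e-07). In PC9 it went from 0.17 to 0.51 (corrected edgeR adjusted p = 5.55e-06). COX7C went from -0.03 to 0.23 in A549 and from 0.07 to 0.30 in PC9. COX7A2L went from -0.16 to 0.22 and from 0.27 to 0.61, and ATP5MG from 0.13 to 0.46 and from -0.06 to 0.26. Whether the corrected or the uncorrected values are closer to the change in the cells was not tested.

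**Figure D4:**
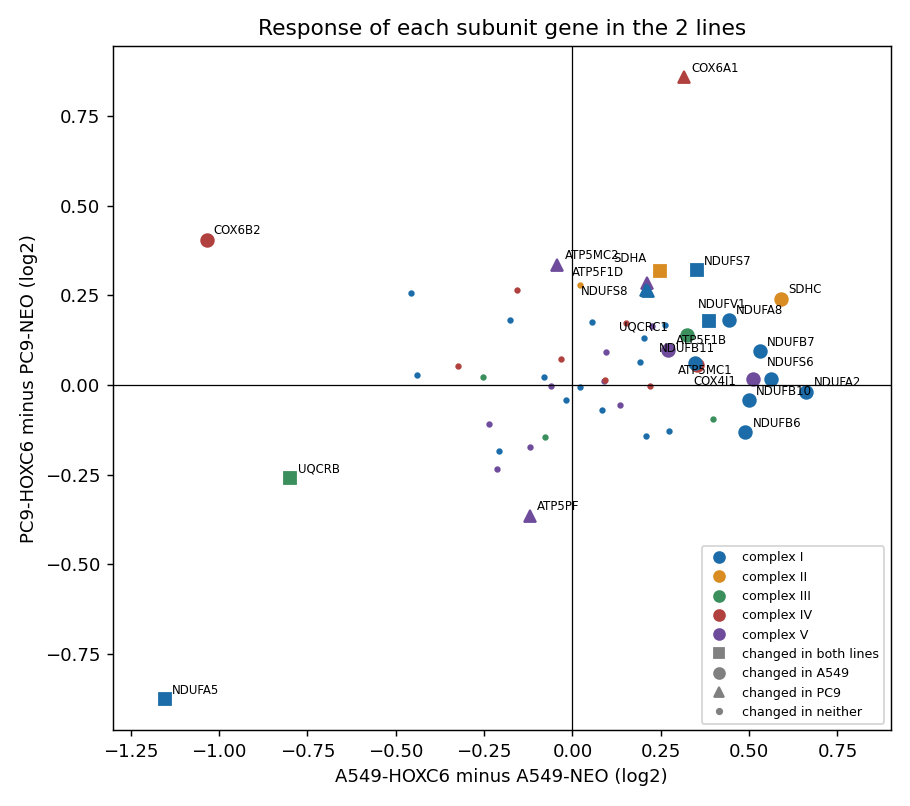
Each point is a gene of the chain, with its log2 change with HOXC6 in A549 on the horizontal axis and in PC9 on the vertical axis, and shapes mark the lines in which it passed the test. Most of the genes that passed are labelled. NDUFA5 lies farthest to the lower left (-1.15 and -0.88), and 33 genes changed in neither line.

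**Figure D5:**
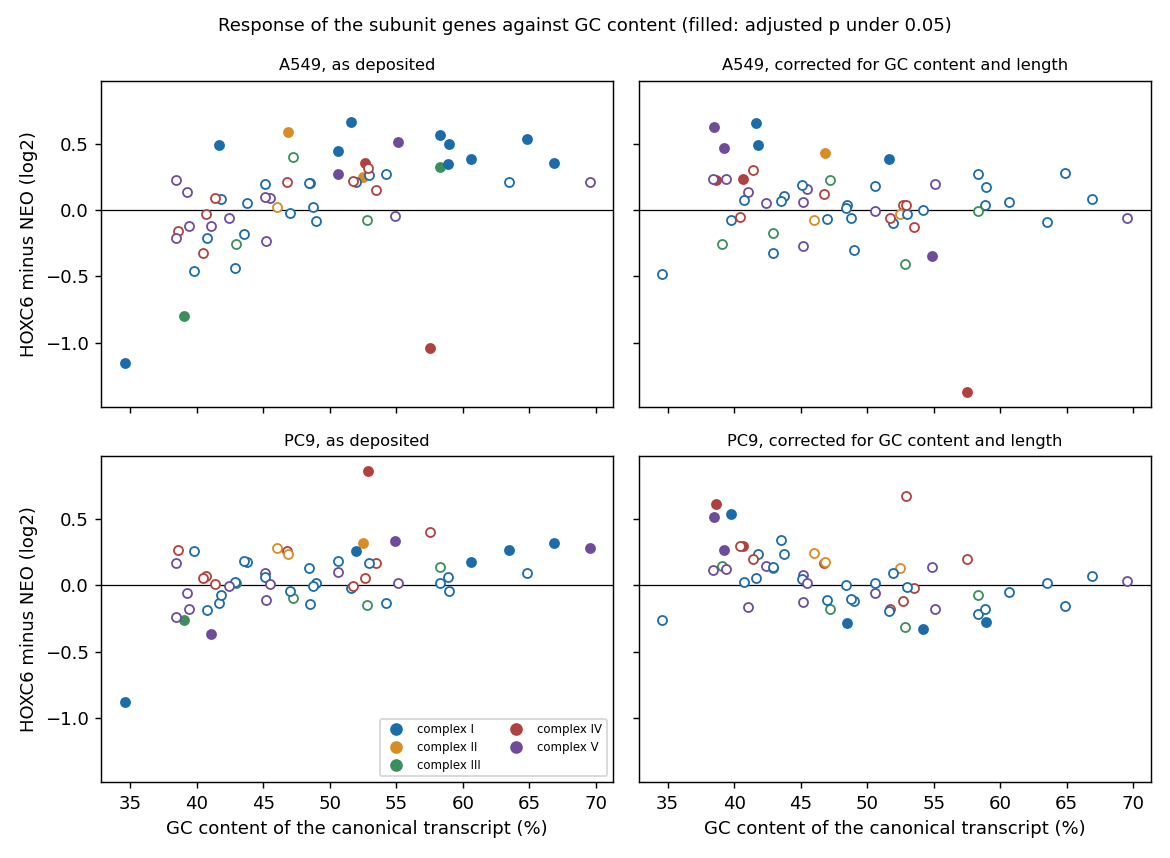
The log2 change with HOXC6 is plotted against the GC content of the canonical transcript, for A549 (top) and PC9 (bottom), from the counts as deposited (left) and after correction for GC content and length (right), with filled points for an adjusted p under 0.05. On the left GC-rich genes lie higher, and the filled points above zero number 15 in A549 and 8 in PC9, against 8 and 5 on the right.

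The changed genes differed in base composition. The median GC content was 55.1% in the 15 genes that rose in A549 and 39.1% in the 3 that fell, and 57.8% and 39.1% in PC9. After the correction, which was fitted over all genes, Spearman's rho of the change with GC content within the chain was -0.22 in A549 and -0.49 in PC9, so among these genes the trend was turned rather than removed. The correction used the same canonical transcripts, which may not be the ones expressed. Of UQCRB, NDUFA5 and NDUFA9 the canonical transcripts are long for a small subunit, at 8459, 5496 and 8356 bp, where the median of the chain is 760.5 bp. Whether the GC trend arose in the libraries or in the cells was not tested.

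Whether the response differed between the lines was tested as an interaction over the 12 libraries, which uses the same NEO libraries as the comparisons above. Of 58 genes, 6 had a higher response in A549 than in PC9 against 10.9% of all genes, and 2 had a lower response against 8.44% (edgeR). None had both an adjusted p under 0.05 and a log2 difference above 1 or below -1, against 5.15% of all genes. DESeq2 also gave none that met both, while 18 had an unadjusted p under 0.05 in edgeR. NDUFA2 differed most clearly, with a response of 0.66 in A549 and -0.02 in PC9, where the libraries held 68.1, 60.4 and 73.4 CPM with NEO and 64.2, 56.0 and 74.7 with HOXC6. The difference was 0.73 ± 0.19 (edgeR adjusted p = 0.00381) and passed the test under each of 19 alternatives. NDUFB10, NDUFS6, ATP5MC1, NDUFB7 and NDUFB2 also had a higher response in A549, by 0.45 to 0.59, and UQCRB and NDUFB5 a lower one. COX6B2, at -1.38 ± 0.56, did not pass (edgeR adjusted p = 0.0806), but it passed after the correction, at -1.49 (edgeR adjusted p = 0.0495), and in 6 of 19 alternatives.
The counts of genes with a different response moved with single libraries. What share of all genes passed without each library is not given here. The higher responses numbered 1 without A549-HOXC6 replicate 3, 2 without A549-NEO replicate 2 or replicate 3, and 3 without PC9-NEO replicate 1 or PC9-HOXC6 replicate 1. The lower ones numbered 0 without A549-NEO replicate 2 or PC9-NEO replicate 3, and 1 without A549-NEO replicate 1, A549-HOXC6 replicate 1 or 2, or PC9-HOXC6 replicate 2.

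Genes that build and regulate the chain were counted in the same way, beside the 18.9% of all genes that rose and 20.7% that fell in A549, and 13.3% and 14.2% in PC9. Of 32 complex assembly factors tested, 2 rose and 5 fell in A549, and 4 rose and 3 fell in PC9, and after the correction these were 2 and 5, and 3 and 3. LRPPRC, which stabilizes mitochondrial mRNAs, was at 393 ± 23.6 CPM in A549-NEO and 185 ± 22.1 in A549-HOXC6, a log2 change of -1.14 ± 0.10 (edgeR adjusted p = 6.87e-10). In PC9 it was at 210 ± 17.5 and 137 ± 8.26, a change of -0.61 ± 0.09 (edgeR adjusted p = 4.28e-06). It passed after the correction in both lines, at -0.79 and -0.37. NDUFAF7, a methyltransferase for complex I assembly, fell by 0.46 in A549 and by 0.75 in PC9 on the log2 scale. After the correction it was at -0.34 in A549 (edgeR adjusted p = 0.0707), where the call was lost, and at -0.63 in PC9 (edgeR adjusted p = 0.00584).

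Of the genes for mitochondrial DNA maintenance and transcription, 1 of 11 rose and 1 fell in A549, and 1 of 12 fell in PC9 (edgeR), and after the correction 1 rose in A549 and 2 fell in PC9. TFAM, which packages mitochondrial DNA and starts its transcription, fell in both lines, by 0.84 and 0.96 on the log2 scale, and after the correction it was at -0.24 (edgeR adjusted p = 0.373) and -0.44 (edgeR adjusted p = 0.0449). TWNK, the mitochondrial helicase, rose in A549 by 0.55 (edgeR adjusted p = 0.00039), and by 0.29 after the correction (edgeR adjusted p = 0.028). Of 10 nuclear regulators, 1 rose and 1 fell in A549, and 1 fell in PC9. These were MYC (0.45) and CREB1 (-0.75) in A549 and GABPA, the DNA-binding subunit of GABP (-0.28), in PC9. After the correction 3 rose in A549 and 1 fell in PC9. MYC was then at 0.29 (edgeR adjusted p = 0.01) and CREB1 at -0.026 (edgeR adjusted p = 0.93) in A549. GABPA turned direction in PC9, to 0.20 (edgeR adjusted p = 0.159). In A549 GABPA was at 0.11 before the correction (edgeR adjusted p = 0.502). It was called higher there after the correction, at 0.71 (edgeR adjusted p = 2.68e-05). Exons of GABPA overlap those of ATP5PF on the opposite strand, and the strand setting of the counting is not given. Of 18 genes for electron carriers, quinone and adenine nucleotide exchange, 4 rose and 2 fell in A549, among them COQ8A (0.65), of ubiquinone synthesis, and GPD2 (-0.58), the mitochondrial glycerol phosphate dehydrogenase. In PC9, 1 rose, the outer membrane channel VDAC2 (0.42), and 2 fell, one of them GPD2 (-0.41). After the correction GPD2 was at -0.11 in A549 (edgeR adjusted p = 0.673) and -0.065 in PC9 (edgeR adjusted p = 0.807), and COQ8A was at 0.36 in A549 (edgeR adjusted p = 0.0426). VDAC2 was then at 0.47 in PC9 (edgeR adjusted p = 4.65e-05), and the list had 3 higher and 1 lower in A549 and 2 higher and 1 lower in PC9.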

How the data were processed

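Read counts per gene were analysed for 12 RNA-seq libraries. The deposited counts were made by the authors from a directional poly(A) library kit with HISAT2 2.1.0 and HTSeq 0.9.1 on GRCh37.p13, per the labels and the submitters' processing notes. They are not normalized, and the strand setting of the counting is not given in the sources used here. Of the 62 genes of the chain, 22 have exons that overlap a gene on the opposite strand. The table used here holds 12584 complete genes, and 1 incomplete line was left out. Totals, scaling and adjustment cover these genes only.

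The filter on low values was filterByExpr and the scaling TMM. Groups were compared in edgeR 4.0.16 under R 4.3.3, using its quasi-likelihood test, and p-values were adjusted by Benjamini-Hochberg across every gene tested. Each line was fitted on its 6 libraries, and the interaction on 12. Levels are TMM-normalized CPM. Errors of levels are SD over 3 libraries, and those of log2 changes are SE. Alternatives were DESeq2 1.42.0, RLE size factors, library size only, no filter, smooth GC and length trends (mgcv 1.9.3, 121 genes without annotation left uncorrected), a replicate block, all 12 libraries in one model, and each library left out. Scripts were tested on simulated data.

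Named genes were those past the thresholds, up to 8 per direction with the smallest adjusted p and groups that did not overlap, those with a different response, those past a log2 difference of 1 between the lines, the tissue isoforms, and up to 4 per further list. Some genes that this rule names are not reported here, although the counts include them. The members and lists were chosen with earlier results of these data known. Promoters are from RefSeq and positions from GENCODE on GRCh37. Same-numbered libraries did not deviate together, with correlations between -0.048 and 0.042 over genes.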

Additional observations from a re-analysis of the deposited data

Results flagged for a closer look

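The response to HOXC6 differed between the lines for 8 genes of the chain by edgeR's interaction term. The difference, as the A549 response minus the PC9 response on the log2 scale, was 0.73 for NDUFA2, 0.59 for NDUFB10, 0.59 for NDUFS6, 0.54 for ATP5MC1, 0.49 for NDUFB7 and 0.45 for NDUFB2. It was -0.49 for UQCRB and -0.67 for NDUFB5. All of these but UQCRB and ATP5MC1 belong to complex I, which held 27 of the 58 genes tested. Of its genes, 18.5% had a higher response and 3.70% a lower one, against 10.9% and 8.44% of all genes. Once GC content and length were corrected for, NDUFA2, NDUFB10, NDUFS6, NDUFB7 and ATP5MC1 passed the test, and UQCRB, NDUFB5 and NDUFB2 did not. The corrected fit also called lower responses in A549 for ATP5MC2 (-0.42, edgeR adjusted p = 0.00623) and COX6B2 (-1.49, edgeR adjusted p = 0.0495). Of 19 alternatives, NDUFB2 passed in 4 and NDUFB5 in 8.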

How the results depend on the processing

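The counts of genes that differed between the lines with the empty vector stayed within 1.5 times under every alternative run. In A549 the higher genes numbered 8 with the GC and length correction, also with the replicate block. Without the filter 5 were lower, with more genes tested, and leaving out 1 library gave 3 to 5. Those past the thresholds numbered 1 with either correction or all 12 libraries in one model, and 0 to 2 with a library left out. In PC9 the higher genes numbered 2 with DESeq2, 3 with library size only, 5 with either correction, 4 in the 12-library model and 1 to 8 with a library left out. The lower ones numbered 1 with DESeq2, 1 in the 12-library model and 1 to 2 with a library left out, and those past the thresholds 0 to 1. Of the differences in response, 1 was higher with DESeq2 and 1 to 8 with a library left out, and 4 were lower with RLE size factors and 0 to 3 with a library left out. Those that met both the adjusted p and a log2 value past 1 numbered 1 without the filter or with either correction, and 0 to 1 with a library left out. Shares of all genes are given above for the GC and length correction alone in A549 and PC9, and not for the other alternatives. The counts here thus do not show whether the chain moved more than the rest of the table. The causes were not tested.

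The replicate numbers did not pair the libraries. With the replicate block 16 genes were higher and 4 lower in A549, and 4 responses were lower in A549 than in PC9, of which 1 passed a log2 value of 1. The correction reversed SDHA (-0.033) and UQCRC1 (-0.0083) in A549, and NDUFV1 (-0.052) and UQCRB (0.15) in PC9. With the block as well these were -0.027, -0.013, -0.046 and 0.14, and NDUFS6 in PC9, at 0.018 before, was -0.21 with the correction alone and with the block added. Depth limits COX6B2 in PC9, with 4 to 19 counts a library, and the 5 genes that were not tested within a line.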

Other observations

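The mitochondrial ribosome, which translates the subunits encoded in mitochondrial DNA, had 12 of 47 genes higher and 6 lower with HOXC6 in A549, and 2 higher and 2 lower in PC9 (edgeR). Over all genes 18.9% were higher and 20.7% lower in A549, and 13.3% and 14.2% in PC9. Once GC content and length were corrected for, there were 4 and 4 in A549, against 12.7% and 19.0% of all genes, and 2 and 3 in PC9, against 8.42% and 12.4%. MRPS7 rose in A549 by 0.51, from 104 ± 1.28 CPM to 153 ± 10.7, and MRPS34 rose by 0.51, and both missed the test after the correction. MRPS18C fell in A549 by 0.79 on the log2 scale (edgeR adjusted p = 2.55e-06) and was at 0.13 in PC9 (edgeR adjusted p = 0.582), a difference in response of -0.86 (edgeR adjusted p = 0.0007). After the correction it was at -0.34 in A549 (edgeR adjusted p = 0.00586) and was called higher in PC9, at 0.59 (edgeR adjusted p = 0.00567). MRPL10 rose in PC9 by 0.53 (edgeR adjusted p = 0.00038), and by 0.35 after the correction (edgeR adjusted p = 0.0163).

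In the tricarboxylic acid cycle and pyruvate dehydrogenase, 5 of 16 genes were higher and 2 lower in A549, against 18.9% and 20.7% of all genes. In PC9 4 were higher and 1 lower, against 13.3% and 14.2%. After the correction A549 had 0 higher and 3 lower, against 12.7% and 19.0% of all genes. PC9 then had 3 higher and 0 lower, against 8.42% and 12.4%. The median log2 change of the list in A549 was 0.10 before the correction and 0.06 after it. DLD, the dihydrolipoamide dehydrogenase shared by several mitochondrial complexes, fell in A549 from 488 ± 42.2 CPM to 278 ± 36.1 (log2 change -0.87 ± 0.10, edgeR adjusted p = 5.55e-08). In PC9 it rose from 228 ± 29.0 to 273 ± 16.3 (0.26 ± 0.09, edgeR adjusted p = 0.022). The difference in response was -1.09 ± 0.13 (edgeR adjusted p = 9.46e-08), and -1.01 after the correction, when DLD was at -0.41 in A549 (edgeR adjusted p = 3.36e-05) and 0.64 in PC9 (edgeR adjusted p = 1.18e-06). DLST rose in both lines, by 0.35 in A549 and 0.52 in PC9, and MDH2 rose in PC9 by 0.33. After the correction DLST was at 0.086 in A549 (edgeR adjusted p = 0.515), where the call was lost, and at 0.34 in PC9, and MDH2 was at 0.16 in PC9 (edgeR adjusted p = 0.0417).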
